A study of Mus musculus with 8 samples.

Results

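The genes described here are 10 genes of endothelial identity and of the VEGF and angiopoietin pathways, namely Vegfa, Kdr, Flt1, Angpt1, Angpt2, Tek, Tie1, Pecam1, Cdh5 and Nos3. They were taken by gene symbol out of the 19938 genes that the array annotation names with 1 symbol. Each of the 10 had 1 probe set with that symbol alone. RNA came from hearts of 8 mice aged 9 weeks on a C57Bl6 background, 1 Affymetrix gene array per animal. Wild-type (WT) mice under PE gave arrays 3 and 4, and WT mice left untreated gave arrays 1 and 2. Mice homozygous for S105A, a serine-to-alanine mutation in the cardiac transcription factor GATA4, gave arrays 7 and 8 under PE and arrays 5 and 6 untreated. PE, which the labels spell out as pseudoephedrine, was given for 5 days from an osmotic pump under the skin, and the daily dose was 100 mg per kg. The titles call the controls untreated, while the treatment protocol gives saline as the alternative to PE. The samples are named whole heart in the titles and ventricle in the tissue field.

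Endothelial cells line the heart's dense capillary bed. VEGF-A, encoded by Vegfa and secreted by heart muscle and other cells, acts on endothelial cells mainly through the receptor tyrosine kinase encoded by Kdr, while the Flt1 receptor binds the same ligand tightly and limits how much of it reaches Kdr. In the angiopoietin system, Angpt1 activates the Tek receptor and stabilises vessels, Angpt2 competes with it depending on context, and Tie1 is a related receptor that modulates Tek. Pecam1 and Cdh5 encode adhesion proteins of endothelial junctions, and Nos3 encodes the endothelial nitric oxide synthase.

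Promoter sequences are shown because several of these genes lay lower together in the PE arrays and because the mutated protein is a GATA factor. RefSeq (GRCm38.p6) windows matched 5 of the 10 genes, Vegfa with 2 start sites, Kdr, Flt1, Tek and Tie1. The 250 bases before the start site are printed 5′ to 3′ for the 4 of these genes with the lowest PE differences averaged over genotypes. Capitals mark matches on either strand to ETS letters (CAGGAA or CCGGAA), to GATA letters (AGATAA or TGATAA) or to the hypoxia letters ACGTG.
Vegfa (chr17:46032378-46032627, minus strand): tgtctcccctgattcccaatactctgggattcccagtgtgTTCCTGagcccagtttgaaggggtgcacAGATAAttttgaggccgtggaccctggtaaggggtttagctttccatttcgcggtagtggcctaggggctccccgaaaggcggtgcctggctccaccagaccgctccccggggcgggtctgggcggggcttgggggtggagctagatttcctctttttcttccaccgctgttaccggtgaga
Kdr (chr5:75978456-75978705, minus strand): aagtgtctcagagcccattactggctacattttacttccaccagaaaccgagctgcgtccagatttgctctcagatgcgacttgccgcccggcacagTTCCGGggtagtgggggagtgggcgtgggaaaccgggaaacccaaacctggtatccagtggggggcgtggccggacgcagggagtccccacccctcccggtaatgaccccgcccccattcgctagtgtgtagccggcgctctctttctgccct
Flt1 (chr5:147726012-147726261, minus strand): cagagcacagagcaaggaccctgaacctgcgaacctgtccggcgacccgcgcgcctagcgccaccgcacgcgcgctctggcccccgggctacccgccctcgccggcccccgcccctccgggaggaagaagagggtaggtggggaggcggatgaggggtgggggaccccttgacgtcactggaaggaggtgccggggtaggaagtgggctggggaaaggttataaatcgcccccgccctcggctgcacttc
Tie1 (chr4:118489850-118490099, minus strand): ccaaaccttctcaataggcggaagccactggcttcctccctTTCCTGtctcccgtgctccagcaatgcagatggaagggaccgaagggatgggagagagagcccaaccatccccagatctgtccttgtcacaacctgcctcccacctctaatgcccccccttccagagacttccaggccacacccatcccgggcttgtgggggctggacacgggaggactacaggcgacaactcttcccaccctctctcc
ETS letters were found once each in the Kdr, Tie1 and upstream Vegfa windows and at 2 places in the Tek window. At least 1 match was present in 4 of the 6 windows of these genes, against 35.1% of all 32851 windows. A GATA match was found in 1 of 6 windows, 182 bases before the upstream Vegfa start, against 16.6% of all windows. The hypoxia letters were found in 1 of 6, the downstream Vegfa window, against 16.6% of all. That window is not printed above, and whether it acts as a promoter was not tested. The Flt1 window held none of these letters.

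The 2 PE arrays of each genotype were not alike, which touches every value below. On the first principal component, which held 69.5% of the variance over all genes, PE arrays 3 and 7 scored 53.3 and 25.1, PE arrays 4 and 8 scored -0.41 and -5.00, and the 4 untreated arrays ranged from -20.8 to -16.1. The median of an array was 6.18 to 6.23 (log2). The mean of 10 cardiomyocyte markers was 13.01 in array 3 and 13.26 to 13.32 in the other PE arrays, against 13.32 to 13.33 in the untreated arrays. Of 3 atrial markers, Myl7 and Sln averaged 5.67 and 4.59 in the PE arrays and 5.82 and 4.61 in the untreated arrays, below the array medians. The other one, Myl4, lay above them, with 8.49, 8.02, 8.92 and 8.70 in PE arrays 3, 4, 7 and 8 and 8.17 to 8.34 in the untreated arrays. Gata4 itself differed by -0.005 (SE 0.07, limma adjusted p = 0.977) between PE and untreated arrays.

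In WT hearts, Vegfa and the receptor genes Kdr and Flt1 had lower values with PE, though none passed the adjusted threshold. Vegfa (probe set 10451198) had log2 values of 10.39 and 10.79 in the PE arrays, against 10.92 and 11.08 in the untreated arrays. Kdr (10530692) had 9.36 and 10.18 in PE and 10.58 and 10.26 in untreated hearts. Flt1 (10535807) had 9.22 and 9.81 in PE and 9.96 and 10.13 in untreated hearts. For all 3 genes the PE arrays lay wholly below the untreated arrays, as for 23.5% of all genes, and array 3 was the lowest of the 8. The log2 differences were -0.41 for Vegfa (SE 0.15, 1.33-fold lower), -0.65 for Kdr (SE 0.27, 1.57-fold lower) and -0.53 for Flt1 (SE 0.20, 1.44-fold lower). The limma adjusted p was 0.419 for each. Without array 3 they were -0.21 for Vegfa, -0.24 for Kdr and -0.24 for Flt1, and without array 4 they were -0.61, -1.06 and -0.82. For genes expressed in endothelial cells, such as Kdr and Flt1, RNA of whole tissue cannot tell fewer of these cells from less of the transcript per cell.

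In S105A hearts the same 3 genes lay closer to the untreated level. Vegfa had 10.55 and 10.74 in PE arrays 7 and 8, against 10.82 and 10.86 in the untreated arrays. Kdr had 9.90 and 10.27 in PE and 10.23 and 10.32 in untreated hearts. Flt1 had 9.46 and 9.81 in PE and 9.77 and 9.81 in untreated hearts. The PE arrays lay wholly below the untreated arrays for Vegfa, as for 25.2% of all genes. For Kdr array 8 lay within and for Flt1 just above the untreated range, with array 7 below it for both. The differences were -0.20 for Vegfa (SE 0.15), -0.19 for Kdr (SE 0.27) and -0.15 for Flt1 (SE 0.20), with limma adjusted p values of 0.767, 0.855 and 0.849. Without array 7 they were -0.10, -0.003 and 0.03, and without array 8 they were -0.29, -0.38 and -0.33. The contrast with WT rested on array 3. Without it, the PE difference in S105A minus that in WT was 0.01 for Vegfa, 0.05 for Kdr and 0.09 for Flt1.

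**Figure D1:**
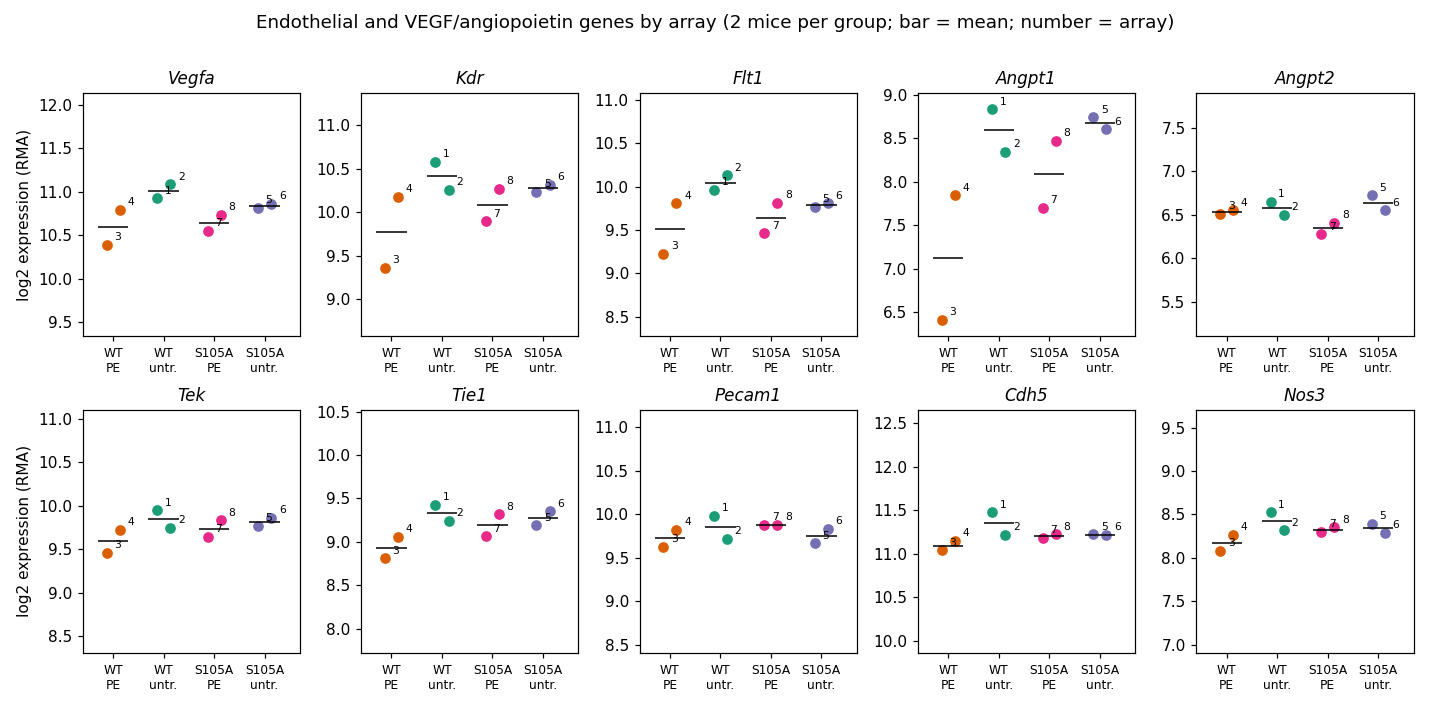
Log2 expression of the 10 genes in each array, by group, with the array number beside each point and the group mean as a bar; every panel spans the same number of log2 units. Array 3 is the lowest point for 9 of the 10 genes, and the drop is deepest for Angpt1, at 6.41.

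Angpt1, the vessel-stabilising ligand of Tek, had the widest range of the 10 genes. Its probe set (10428376) read 6.41 and 7.84 in WT PE arrays 3 and 4, against 8.83 and 8.35 in WT untreated arrays, a log2 difference of -1.46 (SE 0.47, 2.76-fold lower, limma adjusted p = 0.419). Without array 3 this difference was -0.75, and without array 4 it was -2.18. The array 3 value of 6.41 lay close to the array medians of 6.18 to 6.23, and no detection calls were used. In S105A hearts Angpt1 read 7.70 and 8.47 in PE and 8.74 and 8.61 in untreated arrays. The difference there was -0.59 (SE 0.47, limma adjusted p = 0.774). In both genotypes the PE arrays lay below the untreated arrays without overlap, as for 23.5% of all genes in WT and 25.2% in S105A. Among all genes, the difference was at percentile 0.0802 in WT and at percentile 0.281 in S105A, counted from the most negative. Its range over the 8 arrays, 2.43 log2 units, was wider than that of 99.3% of genes.

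Angpt2, which can oppose Angpt1 at the same receptor, had another pattern. Its values (probe set 10577315) were 6.51 and 6.55 in WT PE and 6.65 and 6.50 in WT untreated arrays, which overlapped. In S105A hearts they were 6.28 and 6.41 in PE and 6.73 and 6.55 in untreated arrays. There the PE arrays lay wholly below the untreated arrays, as for 25.2% of all genes. The differences were -0.05 in WT (SE 0.10, adjusted p = 0.870) and -0.30 in S105A (SE 0.10, adjusted p = 0.765, unadjusted p = 0.0242 by limma). These levels lay close to the array medians, and no detection calls were used. Angpt2 was the 1 gene of the 10 whose lowest array was array 7 and not array 3.

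The receptor genes Tek and Tie1 had smaller PE differences than Angpt1 in both genotypes. Tek (probe set 10505954) had 9.46 and 9.72 in WT PE, against 9.95 and 9.75 in WT untreated arrays, with a difference of -0.25 (SE 0.13, adjusted p = 0.430). Tie1 (10515771) had 8.81 and 9.06 in WT PE, against 9.43 and 9.24 in WT untreated arrays, a difference of -0.40 (SE 0.14, adjusted p = 0.419). For both, WT PE arrays lay wholly below WT untreated arrays, as for 23.5% of all genes. In S105A hearts Tek had 9.64 and 9.83 in PE and 9.77 and 9.86 in untreated arrays, and Tie1 had 9.07 and 9.32 in PE and 9.19 and 9.35 in untreated arrays. The groups overlapped for both, with differences of -0.08 for each (SE 0.13 and 0.14).

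The pan-endothelial genes Pecam1, Cdh5 and Nos3 had the narrowest ranges of the 10 over the 8 arrays, 0.357 to 0.441 log2 units. Cdh5, the cadherin of endothelial junctions (probe set 10574438), had 11.04 and 11.15 in WT PE, against 11.48 and 11.22 in WT untreated arrays. Nos3 (10520126) had 8.09 and 8.27 in WT PE, against 8.53 and 8.32 in WT untreated arrays. Pecam1 (10392221) had 9.62 and 9.82 in WT PE, against 9.98 and 9.72 in WT untreated arrays. Only Pecam1 of these 3 overlapped between the WT groups. Over all genes, WT PE arrays lay wholly below WT untreated arrays for 23.5%. The WT differences were -0.26 for Cdh5 (SE 0.10), -0.25 for Nos3 (SE 0.11) and -0.13 for Pecam1 (SE 0.12). In S105A hearts Cdh5 had 11.18 and 11.22 in PE and 11.22 and 11.22 in untreated arrays, and Nos3 had 8.30 and 8.35 in PE and 8.39 and 8.29 in untreated arrays. Pecam1 had 9.88 and 9.88 in S105A PE, above the 9.67 and 9.83 of S105A untreated arrays. The S105A PE arrays lay wholly above for 4035 of all 19938 genes. The S105A differences were -0.02 for Cdh5 (SE 0.10, 95% interval -0.27 to 0.23), -0.02 for Nos3 (SE 0.11, -0.27 to 0.24) and 0.13 for Pecam1 (SE 0.12, -0.16 to 0.43). The adjusted p values of these 3 genes were 0.419, 0.419 and 0.665 in WT and 0.966, 0.972 and 0.795 in S105A (limma).

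**Figure D2:**
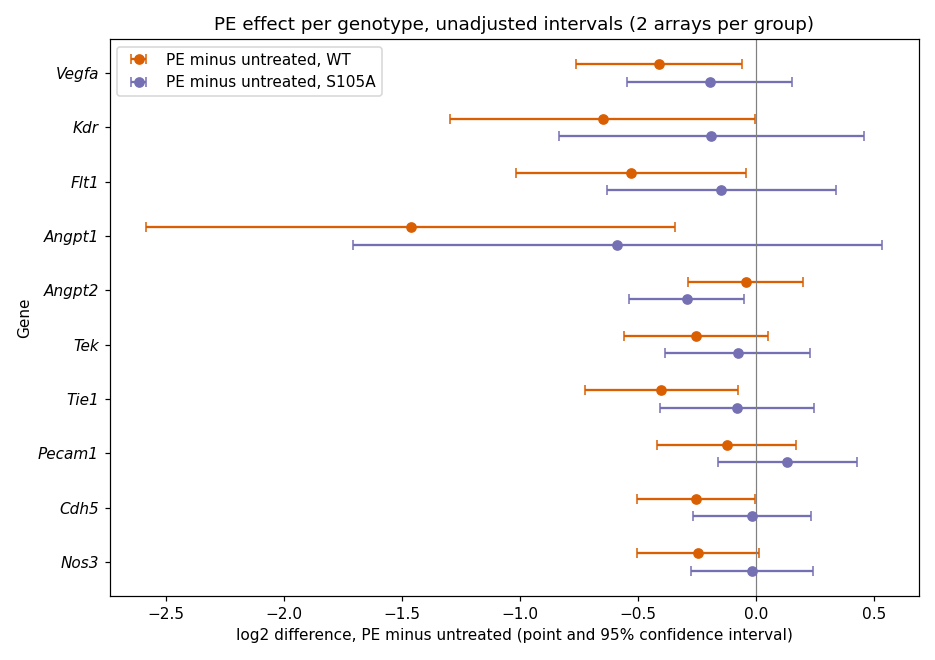
Log2 difference between PE and untreated arrays for each gene in WT and in S105A hearts, with the 95% confidence interval of the limma fit, not adjusted for the number of genes. All 10 points are below 0 in WT and 9 in S105A, and the interval of Angpt1 is the widest.

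Counted over the 10 genes, the PE difference was negative for 10 in WT (median -0.33) and 9 in S105A (median -0.11), whereas over all genes 51.1% were negative in WT (median -0.004) and 56.4% in S105A (median -0.02). At an adjusted p of 0.05, 0 of the 10 passed in WT, where 0.00502% of all genes did, and 0 of the 10 in S105A, where 0% of all genes did. At an unadjusted p of 0.05, 6 of the 10 were lower in WT (Kdr, Flt1, Vegfa, Tie1, Cdh5 and Angpt1), against 5.76% of all genes, and 1 in S105A (Angpt2), against 2.77%. The PE arrays lay wholly below the untreated arrays for 8 genes in WT, against 23.5% of all genes, and for 3 in S105A (Vegfa, Angpt1 and Angpt2), against 25.2%. The WT count of 6 was 8 without array 4, 3 without array 5 or 6, 2 when the S105A arrays were kept out of the fit, 1 without array 1 and 0 without array 3. The S105A count of 1 was 0 without array 5 or 7. Without arrays 3 and 7 the counts were 1 in WT (Angpt1) and 0 in S105A. In that fit 10 of the 10 genes were negative in WT (median -0.21) and 4 in S105A (median 0.006).

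Averaged over the genotypes, the PE difference was -1.03 for Angpt1 (SE 0.33, 2.04-fold lower), -0.42 for Kdr (SE 0.19), -0.34 for Flt1 (SE 0.14), -0.30 for Vegfa (SE 0.10) and -0.24 for Tie1 (SE 0.10). It was -0.17 for Angpt2 (SE 0.07) and for Tek (SE 0.09), -0.14 for Cdh5 (SE 0.07), -0.13 for Nos3 (SE 0.08) and 0.003 for Pecam1 (SE 0.09). Angpt1 was thus the lowest of the 10 and the junction gene Pecam1 the only one not below 0. The limma adjusted p values were 0.281 for Angpt1, 0.282 for Vegfa and 0.292 for Tie1, and up to 0.987 for Pecam1. None of the 10 passed, against 0.00502% of all genes, which is 1 gene, Myh7, the beta myosin heavy chain, named after its value was seen (2.30, SE 0.12, adjusted p = 0.00808). At an unadjusted p of 0.05, 3 of the 10 were lower (Vegfa, Tie1 and Angpt1), against 7.44% of all genes. Vegfa was the 1 gene whose 4 PE arrays all lay below its 4 untreated arrays, against 6.15% of all genes. The count of 3 was 6 without array 4, 5 without array 8, 5 with array weights, 1 without array 1 or 5, 0 without array 7 and 1 without arrays 3 and 7 (Angpt1).

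**Figure D3:**
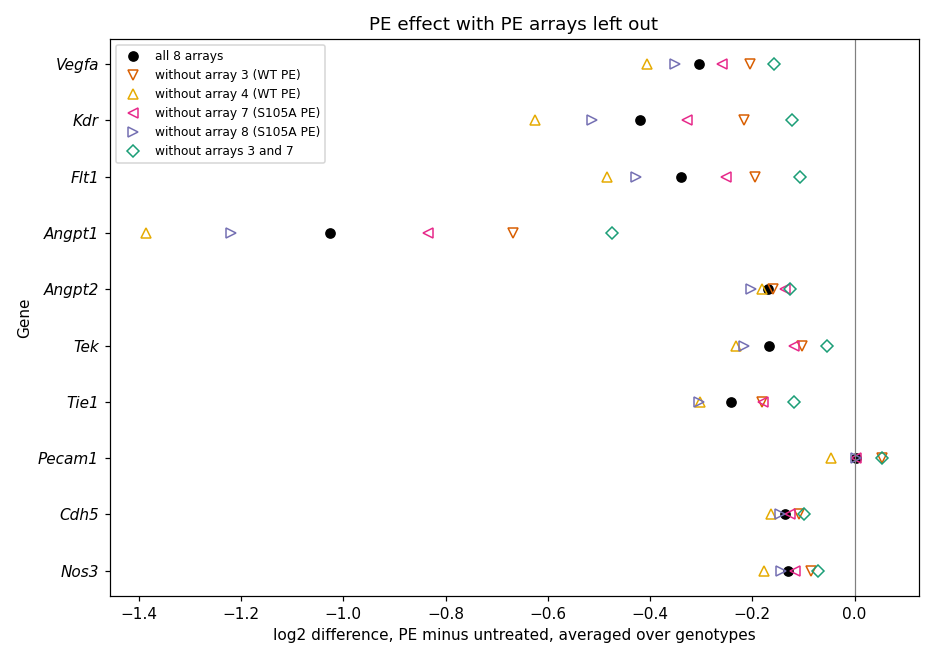
PE difference averaged over genotypes for each gene, with all 8 arrays and with single PE arrays, or arrays 3 and 7, left out. Leaving out arrays 3 and 7 moves Angpt1 to -0.47 and Kdr to -0.12, and leaving out array 4 moves Angpt1 to -1.38.

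How far the PE values rest on arrays 3 and 7 can be read from the pairs. Array 3 minus array 4 was -1.44 for Angpt1, -0.82 for Kdr, -0.58 for Flt1 and -0.40 for Vegfa, and array 7 minus array 8 was -0.77, -0.37, -0.35 and -0.19 for the same genes. Cdh5 (-0.11 and -0.04) and Angpt2 (-0.04 and -0.13) differed little within the pairs. Without arrays 3 and 7 the averaged PE differences were -0.47 for Angpt1, -0.16 for Vegfa, -0.13 for Angpt2, -0.12 for Kdr, -0.12 for Tie1 and -0.11 for Flt1, with the adjusted p of Angpt1 at 0.270. Without array 4 alone, the averaged PE differences were -1.38 for Angpt1, -0.63 for Kdr, -0.48 for Flt1 and -0.41 for Vegfa. There the PE group of WT held array 3 alone, which was assumed to vary like the other groups.

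The genotype comparisons asked whether S105A hearts differed from WT hearts in these genes. Without PE, 8 of the 10 differences were negative (median -0.09), against 49.1% of all genes (median 0.003). The 10 differences lay between -0.26 for Flt1 (SE 0.20) and 0.08 for Angpt1 (SE 0.47). The limma adjusted p values lay between 0.997 and 0.998, and 0 of the 10 passed, against 0% of all genes, of which 504 were lower and 485 higher at an unadjusted p of 0.05. The S105A arrays lay wholly below the WT arrays for Flt1 (9.77 and 9.81 against 9.96 and 10.13) and for Vegfa (10.82 and 10.86 against 10.92 and 11.08). Those are 2 of 10 genes, against 22.7% of all genes. Array 1, from a WT untreated heart, held the highest value of 7 of the 10 genes. With array 1 left out, the direction turned, with 2 of the 10 differences negative and 8 positive (median 0.03).

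With PE, 9 of the 10 were higher in S105A than in WT hearts (median 0.15), while the median over all genes was -0.009. Angpt1 differed by 0.96 (SE 0.47, 95% interval -0.16 to 2.08), Kdr by 0.31 (SE 0.27), Tie1 by 0.26 (SE 0.14) and Angpt2 by -0.19 (SE 0.10). The adjusted p values were between 0.989 and 0.990, and 0 of the 10 passed, against 0% of all genes, of which 286 were lower and 249 higher at an unadjusted p of 0.05. The S105A arrays lay wholly above the WT arrays for Tie1, Pecam1, Cdh5 and Nos3, 4 of 10 genes against 10.5% of all genes, though by narrow gaps such as 9.065 in S105A against 9.056 in WT for Tie1. The Angpt1 difference was 0.24 without array 3 and 1.67 without array 4, where array 3 alone stood for the WT PE hearts. Vegfa, Kdr and Flt1 turned to -0.15, -0.10 and -0.17 without array 3.

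Whether PE acted differently in the genotypes was tested as an interaction, S105A minus WT. It was positive for 9 of the 10 genes (median 0.25, against -0.01 over all genes), and Angpt2 was the exception at -0.25 (SE 0.14). Angpt1 had 0.87 (SE 0.66, 95% interval -0.71 to 2.46), Kdr 0.46 (SE 0.38, -0.45 to 1.37), Flt1 0.38 (SE 0.29, -0.30 to 1.07) and Tie1 0.32 (SE 0.19, -0.14 to 0.78). By limma 0 of the 10 passed (adjusted p = 1.00 for each), against 0% of all genes, of which 303 were negative and 180 positive at an unadjusted p of 0.05. The intervals include 0 and also differences as large as the PE effects in WT. Without array 3 the interaction was 0.16 for Angpt1, 0.05 for Kdr and 0.09 for Flt1, and without array 4 it was 1.59, 0.87 and 0.67.

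Ordered by group mean, the WT PE hearts were the lowest group for 9 of the 10 genes and the S105A PE hearts for Angpt2. Array 3 was the lowest array for those 9 genes, and the group order was not counted over all genes. The WT untreated hearts were the highest for 7, the S105A untreated hearts for Angpt1 and Angpt2, and the S105A PE hearts for Pecam1. For Kdr, Tek, Pecam1 and Angpt1 every pair of neighbouring groups in this order overlapped. For Vegfa, the order WT untreated, S105A untreated and S105A PE had no overlap between neighbours, and S105A PE overlapped with WT PE. For Flt1 the 1 pair without overlap was WT and S105A untreated, and for Angpt2 it was WT PE and S105A PE. For Cdh5, Nos3 and Tie1 the 1 pair without overlap was S105A PE above WT PE. Such gaps were common over all genes. Without PE, S105A lay wholly below WT for 22.7% of them. With PE, S105A lay wholly above WT for 10.5% and wholly below WT for 2601 of 19938 genes. In S105A hearts, PE lay wholly below untreated for 25.2%.

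Other genes of the pathway were read from lists, with 152 of 160 entries measured, and in none of the 15 lists did a gene pass an adjusted p of 0.05 for the averaged PE effect. Over all genes 56.0% of these differences were negative, and at an unadjusted p of 0.05 7.44% of genes were lower and 9.31% higher. Of 7 further VEGF ligands and receptors, 3 were lower and 4 higher (median 0.04), and 1 was higher at an unadjusted p of 0.05. That gene was Vegfd, a ligand best known for lymphatic growth, at 7.90, 7.43, 7.37 and 6.88 in PE arrays 3, 4, 7 and 8 and 6.66 to 6.88 in untreated arrays, a difference of 0.62 (SE 0.14, limma adjusted p = 0.275). PE array 8 was level with the highest untreated array, and the other 3 PE arrays lay above all untreated ones. Vegfb differed by -0.20 (SE 0.13), the lymphatic receptor gene Flt4 by 0.14 (SE 0.11) and the co-receptor gene Nrp1 by -0.08 (SE 0.08).

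The genes typical of heart capillaries were on one side, with 10 of 10 negative (median -0.35, and -0.16 without arrays 3 and 7) and 3 lower at an unadjusted p of 0.05. The carbonic anhydrase gene Car4 differed by -0.96 (SE 0.37), the water channel genes Aqp7 and Aqp1 by -0.93 (SE 0.41) and -0.57 (SE 0.23), and the transcription factor gene Tcf15 by -0.38 (SE 0.15). Car4 had 7.81, 9.55, 8.59 and 9.37 in PE arrays 3, 4, 7 and 8 and 9.63 to 9.93 in untreated arrays. These 4 genes had adjusted p values of 0.287 to 0.309, and the PE arrays of Car4, Aqp7 and Aqp1 lay wholly below the untreated arrays, as for 6.15% of all genes.

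The other endothelial lists held genes on both sides. Of 22 junction and surface genes, 13 were lower and 9 higher (median -0.10), with 2 lower and 3 higher at an unadjusted p of 0.05. Cd34 (0.33, SE 0.11), Mcam (0.46, SE 0.17) and the fenestral diaphragm gene Plvap (0.56, SE 0.21) were on the higher side, and Ptprb, the phosphatase that acts on Tek, was at -0.19 (SE 0.07). Of 15 endothelial transcription factors, 10 were lower and 5 higher (median -0.13), with 5 lower and 2 higher at that level. Sox7 differed by -0.62 (SE 0.23), Gata2 by -0.41 (SE 0.14), Sox18 by -0.24 (SE 0.08) and Lmo2 by 0.31 (SE 0.06). Sprouting genes had 6 lower and 14 higher of 20 (median 0.15, with 2 lower and 5 higher at an unadjusted p of 0.05). Among them the basement membrane collagens Col4a1 and Col4a2 had 0.94 (SE 0.30) and 0.76 (SE 0.28), the tip cell marker Esm1 0.24 (SE 0.08) and the Notch target Hey1 -0.55 (SE 0.13). Esm1 averaged 6.30 in PE and 6.05 in untreated arrays, close to the array medians, and no detection calls were used.

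Of 13 nitric oxide pathway genes besides Nos3, 6 were lower and 7 higher (median 0.02). Hsp90aa1, a chaperone that binds the synthase, differed by 0.50 (SE 0.11), Ddah2 by 0.58 (SE 0.21), the cyclic GMP kinase gene Prkg1 by 0.48 (SE 0.15) and the caveolin gene Cav2 by -0.37 (SE 0.13). Of 13 measured hypoxia genes, 9 were lower and 4 higher (median -0.07). Hif1a, the oxygen-regulated subunit that can drive Vegfa, differed by 0.70 (SE 0.20), and the prolyl hydroxylase genes Egln3 and Egln1 by -0.55 (SE 0.09) and -0.53 (SE 0.20), with Bnip3 at -0.21 (SE 0.06). Hif1a had 11.59, 10.80, 11.16 and 10.64 in PE arrays 3, 4, 7 and 8 and 10.24 to 10.48 in untreated arrays. The PE arrays thus lay wholly above the untreated arrays, as for 1336 of all 19938 genes. Of 9 measured endothelial activation genes, 2 were lower and 7 higher (median 0.15), with Plat at 0.42 (SE 0.16), Procr at 0.24 (SE 0.06), Tfpi at -0.56 (SE 0.19) and the thrombomodulin gene Thbd at -0.31 (SE 0.10). Procr averaged 6.33 in PE and 6.09 in untreated arrays, also close to the array medians. All genes named from these 3 lists had limma adjusted p values between 0.275 and 0.287.

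Markers of other cell types also had different levels in PE and untreated arrays, though none passed the adjusted threshold. The mean of 6 fibroblast markers was 10.92, 9.92, 10.58 and 9.88 in PE arrays 3, 4, 7 and 8, against 9.23 to 9.38 in untreated arrays, and 6 of 6 differences were positive (Col1a1 2.38, Col1a2 2.20, Lum 1.06, Pdgfra 0.36). The mean of 5 macrophage markers was 9.29, 8.53, 8.96 and 8.30 in the same PE arrays, against 7.64 to 8.13, with 5 of 5 positive (Adgre1 1.23, Csf1r 0.82, Fcgr1 0.77, Mrc1 0.71). The mean of the 10 endothelial and VEGF genes was 8.89, 9.32, 9.20 and 9.43, against 9.45 to 9.63. In all 3 of these means, array 3 lay farthest from the untreated arrays and array 7 next. Without arrays 3 and 7, 5 of 6 fibroblast and 5 of 5 macrophage differences were positive (medians 0.43 and 0.53). The limma adjusted p was 0.275 for each fibroblast and macrophage gene named, with all 8 arrays. Cardiomyocyte markers had 6 lower and 4 higher of 10 (median -0.13). Ryr2 had -0.12, Tnni3 -0.20, Myl2 -0.20 and Myl3 -0.26, with limma adjusted p values of 0.329 to 0.415. The part that shifts between these cell types had in the endothelial values was not tested.

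The remaining lists were mixed or small. Mural cell markers, of pericytes and smooth muscle, had 5 lower and 7 higher of 12 (median 0.04), with Cnn1 at 1.41 (SE 0.58), Cspg4 at 0.60 (SE 0.23), Des at 0.38 (SE 0.13) and the channel gene Kcnj8 at -0.49 (SE 0.17). Lymphatic markers had 4 lower and 1 higher of 5 measured (median -0.22), with Pdpn at 0.68 (SE 0.15), Prox1 at -0.40 (SE 0.21), Reln at -0.22 (SE 0.10) and Mmrn1 at -0.13 (SE 0.12). The atrial list had 2 lower and 1 higher of 3 (Myl4 0.29, Myl7 -0.16, Sln -0.02). Of 6 red blood cell markers 2 were measured and both had negative differences, -1.30 for Alas2 (SE 0.14) and -0.39 for Slc4a1 (SE 0.09). The limma adjusted p value was 0.186 for Alas2 and between 0.275 and 0.898 for the other genes named from these lists.

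**Figure D4:**
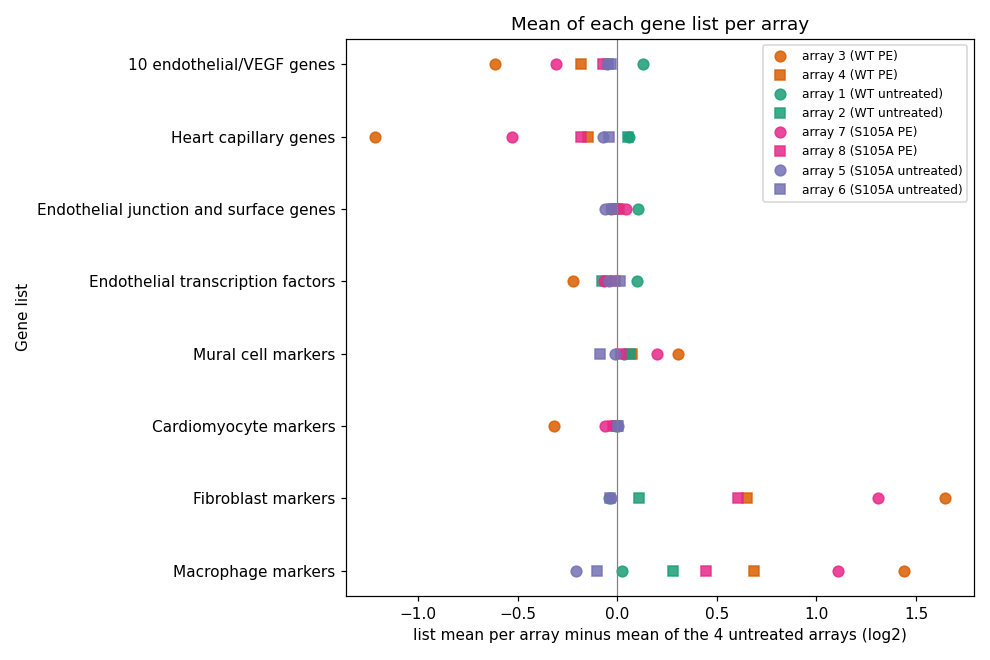
Mean log2 level of 8 gene lists in each array, as the distance from the mean of the 4 untreated arrays, with 1 point per array. The 10 endothelial and VEGF genes and the heart capillary genes lie lowest in arrays 3 and 7, while fibroblast and macrophage markers lie highest there.

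Genes with the most similar profile were found by the root mean square difference between log2 values, each gene centred on its own mean, over the 8 arrays. For Kdr these were the sphingosine phosphate receptor gene S1pr3 (0.059), Zfp770 (0.063) and Tbc1d4 (0.066). The nearest of the 10 genes was Flt1 (0.162), at rank 520 among all genes. S1pr3 read 8.53 and 9.13 in arrays 3 and 7 and 9.35 to 9.73 in the others, the same dip as in Kdr. For Vegfa they were Cox11 (0.028), Gpr37l1 (0.038) and Polrmt (0.039), and Flt1 was again the nearest of the 10 (0.076, rank 123). For Angpt2 they were Prickle4 (0.038), Gclc (0.044) and Spp2 (0.046), while the nearest of the 10 was Nos3 (0.138, rank 5604). Many genes outside the 10 were thus closer to each of these 3 genes than the nearest of the 10.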

How the data were processed

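The deposited values are log2 expression values of 35557 probe sets that the authors made with RMA, per the submitters' processing notes. For its version and for the genome build, the sources used here give nothing. The method makes the arrays' distributions of probe intensities equal before they are combined into probe sets, so a change common to most genes is not visible. The deposited values were close to equal in distribution but not identical, with array medians of 6.18 to 6.23. Of the probe sets, 21789 had 1 gene symbol, 1621 several and 12147 none. Where a gene had several probe sets (999 genes), the one with the highest mean was kept, which left 19938 genes.

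Group means were compared with limma 3.58.1 (R 4.3.3), all 4 groups sharing 1 estimate of the spread with 4 residual and 2.74 prior degrees of freedom. P values are two-sided and adjusted by Benjamini-Hochberg over all genes. Differences are PE minus untreated or S105A minus WT, and intervals are 95% intervals of the fit. The number of arrays, 2 animals per group, limits the precision. On simulated data 200 of 19938 genes were changed. For PE in WT, 76.2% of 2-fold and 96.8% of 4-fold changes were recovered. The rates were 90.6% and 98% for the average, and 25.7% and 88.6% for the interaction. Whether these rates hold for the real arrays, where PE arrays 3 and 7 lay apart from 4 and 8, was not tested. In the real arrays Col1a1 and Col1a2 differed by 2.38 and 2.20 for the average, each with a limma adjusted p of 0.275. Myh7, at 2.30, was the 1 gene that passed there. Angpt1 was 2.76-fold lower in WT, with a limma adjusted p of 0.419.

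The 10 genes and the 15 lists were chosen with earlier results of these data known. All 10 were named, with up to 4 genes per list by the smallest unadjusted p for the averaged PE effect, and the 3 genes most like Kdr, Vegfa and Angpt2. Alternatives were leaving out the lowest 40% of genes, averaging probe sets, testing every row, quantile normalizing again, a trended robust variance, array weights, fitting the compared arrays alone, dropping the interaction term, and leaving out each array or arrays 3 and 7.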

Additional observations from a re-analysis of the deposited data

How the results depend on the processing

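No paired analysis was possible because the titles give each animal its own number. Of 950 values of the 10 genes under the alternatives (60 differences), 905 kept their direction and side of the threshold, 9 gained a call, all of them without array 4, and 36 changed sign. No gene of the 10 had a call to lose. With single arrays left out, 0 to 4 of the 10 genes passed the threshold for PE in WT and for the average, 0 to 1 for S105A against WT with PE, and 0 in the other comparisons. Over all genes the counts were 0 to 3541 for PE in WT, 0 to 1 for PE in S105A, 0 to 4137 for the average, 0 to 3 and 0 to 711 for S105A against WT without and with PE, and 0 to 7 for the interaction. In the same order, the counts without arrays 3 and 7 were 58, 30, 137, 4, 5 and 1. For PE in WT the count was 0 with all rows, 0 with only the 4 arrays compared and 2 with array weights, and for PE in S105A 1 with array weights. For S105A against WT without PE it was 1 with averaged probe sets, 1 with the trended variance, 6 with array weights and 4 with only the 4 arrays.

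The sign changes were as follows. A further quantile normalization gave -0.010 for Pecam1 in the average and 0.0089 for Tek between genotypes without PE. Without arrays 3 and 7, PE in S105A gave 0.028 for Flt1, 0.018 for Tek, 0.044 for Tie1, 0.0018 for Cdh5 and 0.011 for Nos3, and S105A against WT with PE gave -0.057 for Vegfa. The ranges with 1 array left out, where a sign changed, were -0.257 to 0.00606 (Pecam1) and -0.121 to 0.0307 (Angpt2) for PE in WT, and -0.0626 to 0.0691 (Pecam1) for the average. For PE in S105A they were -0.325 to 0.0277 (Flt1), -0.176 to 0.0179 (Tek), -0.206 to 0.0441 (Tie1), -0.0377 to 0.00185 (Cdh5) and -0.0697 to 0.0373 (Nos3). For S105A against WT without PE they were -0.307 to 0.0142 (Kdr), -0.133 to 0.0712 (Tek), -0.158 to 0.0297 (Tie1), -0.234 to 0.0299 (Pecam1), -0.256 to 0.000715 (Cdh5), -0.185 to 0.0228 (Nos3), -0.161 to 0.327 (Angpt1) and -0.0238 to 0.149 (Angpt2). For S105A against WT with PE they were -0.0961 to 0.723 (Kdr), -0.167 to 0.413 (Flt1) and -0.149 to 0.254 (Vegfa). A group left with 1 array adds nothing to the estimated spread, so these counts also move with the spread that remains. Without detection calls, how far low signals such as Angpt2, or Angpt1 in array 3, stand above background is unknown.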
